A study of Mus musculus with 8 samples.

Results

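Kif12, Col27a1, Akna and Orm1 are neighbouring protein-coding genes on mouse chromosome 4, and they are 4 of the 26520 genes of the deposited table. They were chosen by position, because Kif12 and Col27a1, which lie next to each other, both had far higher values in nuclear than in cytoplasmic RNA of MIN6 cells. The MIN6 values of the 4 genes therefore chose them, and are given below as a description with no test. The liver values did not enter the choice and were tested. All 4 genes were found in the table, and each was identified by its Ensembl gene ID in the GENCODE M21 annotation of mouse build GRCm38, also called mm10.

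The data are RNA-seq libraries of polyadenylated RNA from mouse, with 2 libraries in each of 4 groups. MIN6 is a mouse insulinoma cell line that is widely used as a model of the pancreatic beta cell. MIN6 nuclear RNA came from nuclei pelleted through sucrose, and MIN6 cytoplasmic RNA from the supernatant of a mild detergent lysate. Liver nuclear RNA was the soluble RNA left once chromatin had been spun out of lysed nuclei, and liver cytoplasmic RNA came from the supernatant over which nuclei had been collected. RNA held on liver chromatin is therefore not part of the liver nuclear libraries, whereas the MIN6 nuclear libraries came from whole nuclei. No treatment, mutation, sex or age is given for any group, and the labels do not say whether the 2 libraries of a group came from separate animals or cultures. All p-values thus measure the spread between these libraries, which may be technical. The strain field of the liver samples reads C57BL/6 and C57BL/7 for the nuclear libraries and C57BL/8 and C57BL/9 for the cytoplasmic libraries. The number thus goes up by 1 from sample to sample, as a spreadsheet fill would give, so these entries may not be strains. Taken as written, strain and fraction could not be told apart in liver. MIN6 samples were placed by their titles, since their source field names the opposite fraction. FPKM stands nominally for fragments per kilobase of transcript per 1000000 fragments, but the values here are not on that common scale. The summed FPKM of 5 long noncoding RNAs known to stay in nuclei was 187 to 477 in MIN6 libraries titled nuclear. It was 27.7 to 58.5 in MIN6 libraries titled cytoplasmic. In liver the same sum was 63.4 to 81.8 in nuclear and 3.45 to 10.1 in cytoplasmic libraries. Of 9 beta cell markers, 8 or 9 were above 0 in each MIN6 library, and all 8 hepatocyte markers were above 0 in each liver library.

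A messenger RNA is spliced and polyadenylated in the nucleus and then exported through nuclear pores. Fully processed transcripts of some genes nevertheless spend much of their life in the nucleus, and retained introns, slow export and fast cytoplasmic decay are among the known routes to a high nuclear share. The genes described here have unrelated protein products. Kif12 encodes a kinesin, a family of motors that move along microtubules, and in mouse beta cells the protein is known as a scaffold in the response to oxidative stress. Col27a1 encodes a fibrillar collagen known mainly from cartilage. Akna encodes an AT-hook protein known in lymphocytes as a transcription factor and in mouse neural stem cells as a centrosomal organiser of microtubules. Orm1 encodes orosomucoid, or alpha-1-acid glycoprotein, an acute phase protein that hepatocytes secrete into plasma.

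The 4 genes spanned 237.7 kb. Kif12 (ENSMUSG00000028357) lies at chr4:63165630-63172131 on the minus strand. Col27a1 (ENSMUSG00000045672) lies at chr4:63214004-63334991 on the plus strand, and the 2 genes point away from each other across a gap of 41.9 kb. Orm1 (ENSMUSG00000039196) lies at chr4:63344560-63348163 on the plus strand, 9.57 kb beyond Col27a1. Akna (ENSMUSG00000039158) lies at chr4:63367125-63403354 on the minus strand, 19.0 kb beyond Orm1. Mir455 lies inside Col27a1 and was listed at 0 in all 8 libraries. The antisense gene Aknaos overlaps Akna. The labels do not say whether reads were assigned by strand, so reads of Akna and of its antisense partner cannot be told apart.

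Because Kif12 and Col27a1 have the values that the choice of genes rests on, the 250 bases upstream of each start site are shown, 5′ to 3′ on the gene's own strand, from the RefSeq promoter table for GRCm38.p6. Capitals mark a GC box (GGGCGG), the binding motif of Sp1-type factors. The Kif12 window is chr4:63172132-63172381 on the minus strand and the Col27a1 window is chr4:63215162-63215411 on the plus strand, upstream of the RefSeq start and inside the longer GENCODE gene.
Kif12: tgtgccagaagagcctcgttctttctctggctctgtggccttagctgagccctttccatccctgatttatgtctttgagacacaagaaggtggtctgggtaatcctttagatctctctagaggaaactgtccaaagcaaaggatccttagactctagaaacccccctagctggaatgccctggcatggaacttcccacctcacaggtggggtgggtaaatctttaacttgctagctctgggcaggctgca
Col27a1: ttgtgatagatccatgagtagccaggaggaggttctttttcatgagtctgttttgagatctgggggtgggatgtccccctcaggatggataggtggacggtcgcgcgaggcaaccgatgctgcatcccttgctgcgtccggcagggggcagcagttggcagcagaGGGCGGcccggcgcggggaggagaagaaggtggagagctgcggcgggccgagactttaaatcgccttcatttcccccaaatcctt
The Kif12 window had a GC content of 50.4% and 1 CpG dinucleotide, and the Col27a1 window had 59.6% and 15. Over all 32851 windows of the table the medians were 52.4% and 6. Both strands were searched for the TATA box (letters TATAAA), the CCAAT box (letters CCAAT), the GC box (letters GGGCGG), the E-box (letters CACGTG) and the CRE (letters TGACGTCA), and no match overlapped another in these windows. The Kif12 window held none of them. The Col27a1 window held 1 match, the GC box, at position -85 from the start, and 32.7% of all windows held a GC box. A match describes letters only.

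FPKM values of different groups stand on unlike scales here, which bears on every comparison. Summed over all genes they came to 35469 and 35662 in MIN6 nuclear libraries and 60421 and 63355 in MIN6 cytoplasmic libraries. In liver the sums were 176592 and 104923 in nuclear libraries and 1219625 and 859210 in cytoplasmic libraries. No read counts are given, but low values move in steps of 1 read. In units of 1000000 reads, the numbers estimated from those steps were 0.971 to 1.94 per library, and the FPKM worth of 1 read in the liver cytoplasmic libraries was 46.4 and 33.9 times that in MIN6 nuclear library 1. A 0 in liver cytoplasm is therefore a weak limit. The median log2 ratio, nuclear over cytoplasmic, was -0.76 over 6017 genes tested in MIN6 and -1.64 over 10353 genes tested in liver. Shifting each library to a common median moved all ratios up by 0.60 in MIN6 and by 1.73 in liver. In liver the share of called genes that were higher in nuclear libraries was 5.51%, and 38.3% after that shift. In MIN6 it was 20.4%, and 44.8% after the shift.

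Kif12 had far higher levels in nuclear than in cytoplasmic RNA of MIN6 cells. It had 165.8 and 56.1 FPKM in MIN6 nuclear libraries, against 1.53 and 2.57 FPKM in MIN6 cytoplasmic libraries. Both nuclear values lay well above both cytoplasmic values. These values correspond to an estimated 7240 and 2356 reads in the nuclear libraries and 29.8 and 47.7 reads in the cytoplasmic libraries. The estimates are whole multiples of 5.96, so the numbers of reads may be lower by that factor. Kif12 averaged 111 ± 77.6 FPKM in MIN6 nuclear and 2.05 ± 0.732 FPKM in MIN6 cytoplasmic RNA (SD, n = 2 each), a 54.1-fold ratio of the means. On the log2(FPKM + 1) scale the ratio was 5.02, which placed Kif12 12th of 6017 genes from the nuclear end. The nuclear libraries differed from each other more than they did for most genes. The value of nuclear library 1 was 2.96 times that of library 2, where the median over all tested genes was 1.28 and the range from the 5th to the 95th percentile was 0.412 to 3.36. Expressed per 1000000 estimated reads, which sets aside the unlike FPKM scales, Kif12 had 3726 and 1869 in nuclear and 25.9 and 41.8 in cytoplasmic MIN6 libraries, an 82.7-fold ratio of the means.

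In liver Kif12 was close to the detection limit in both fractions. It had 0.678 and 0 FPKM in liver nuclear libraries, and was listed at 0 in both cytoplasmic libraries. The single value above 0 stands for an estimated 5.96 reads. All Kif12 estimates above 0 are whole multiples of 5.96, so this value may be only 1 read. By the estimate, 3 reads on the Kif12 transcript would give 0.341 and 0.255 FPKM in the nuclear libraries. They would give 3.19 and 2.33 FPKM in the cytoplasmic libraries. If 0.678 FPKM is 1 read in liver nuclear library 1, these limits are all too low. A cytoplasmic level several times the nuclear value was thus not detectable at this depth. Kif12 did not pass the filter of a mean of 1 FPKM in liver and has no test there. In humans, variants of KIF12 are known from cholestatic liver disease. Of 7 bile duct markers, 3 or 4 were above 0 in each liver library, while Krt7, Epcam and Cftr were listed at 0 in all 4, and the summed level of the 7 was 14.5 to 16.7 FPKM in nuclear and 83.8 to 102 FPKM in cytoplasmic libraries. Their part in the liver value of Kif12 was not tested, and in bulk RNA fewer cells of a type and less RNA per cell cannot be told apart.

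Col27a1 had higher levels in nuclear RNA in both tissues. It had 25.3 and 17.4 FPKM in MIN6 nuclear libraries, against 0.528 and 0.276 FPKM in MIN6 cytoplasmic libraries. The MIN6 groups lay far apart, with an estimated 3723 and 2461 nuclear reads against 34.6 and 17.3 cytoplasmic reads. The estimates for Col27a1 move in even steps of several estimated reads, so the numbers of reads may be several times lower. The means were 21.3 ± 5.59 FPKM in nuclear and 0.402 ± 0.178 FPKM in cytoplasmic libraries (SD, n = 2 each), a 53.1-fold ratio. The log2 ratio was 3.98, or 33rd of 6017 genes from the nuclear end. It lies below that of Kif12, although the folds are close, because the added 1 FPKM weighs more on low values. Without the authors' scaling the fold per 1000000 estimated reads was 85.6.

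In liver, which played no part in the choice of the gene, Col27a1 had 23.5 and 14.2 FPKM in nuclear libraries, against 6.81 and 1.99 FPKM in cytoplasmic libraries. The groups did not overlap: both nuclear values were above both cytoplasmic values. Col27a1 averaged 18.8 ± 6.58 FPKM in nuclear and 4.40 ± 3.41 FPKM in cytoplasmic libraries (SD, n = 2 each), a 4.28-fold ratio. The log2 ratio was 2.00 with an SE of 0.63, and passed limma's test across all genes (adjusted p = 0.0459). It stood 263rd of 10353 genes from the nuclear end. The cytoplasmic values rest on an estimated 21.6 and 8.65 reads, and the nuclear values on 696 and 562. These numbers may be several times too high, since they share a step of several estimated reads. The cytoplasmic values may thus rest on only a few reads. Per 1000000 estimated reads Col27a1 had 535 and 481 in nuclear and 21.4 and 8.90 in cytoplasmic liver libraries, a 33.5-fold ratio of the means. The call is a narrow one. It was lost when either nuclear library or cytoplasmic library 2 was left out, with log2 ratios of 1.65 and 2.34 without nuclear library 1 and 2 and of 1.30 without cytoplasmic library 2 (limma adjusted p = 0.285, 0.210 and 0.111). It was also lost with a smaller added value, at a log2 ratio of 2.27 with 0.1 FPKM (adjusted p = 0.0798), and with no filter on low genes (adjusted p = 0.0796). With each library shifted to a common median the log2 ratio was 3.73 (adjusted p = 0.0123).

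The liver level of Col27a1 stood beside those of the cell types that could bring it. Of 8 stromal and endothelial markers, 6 to 8 were above 0 in each liver library, and their summed level was 48.0 to 64.5 FPKM in nuclear and 126 to 150 FPKM in cytoplasmic liver libraries. In MIN6 0 to 4 of them were above 0 and the sum was at most 0.583 FPKM in any library, with Col3a1, Dcn, Lrat and Kdr at 0 throughout, while Col27a1 had 17.4 to 25.3 FPKM in MIN6 nuclei. The part of these cells in the liver values was not tested.

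**Figure D1:**
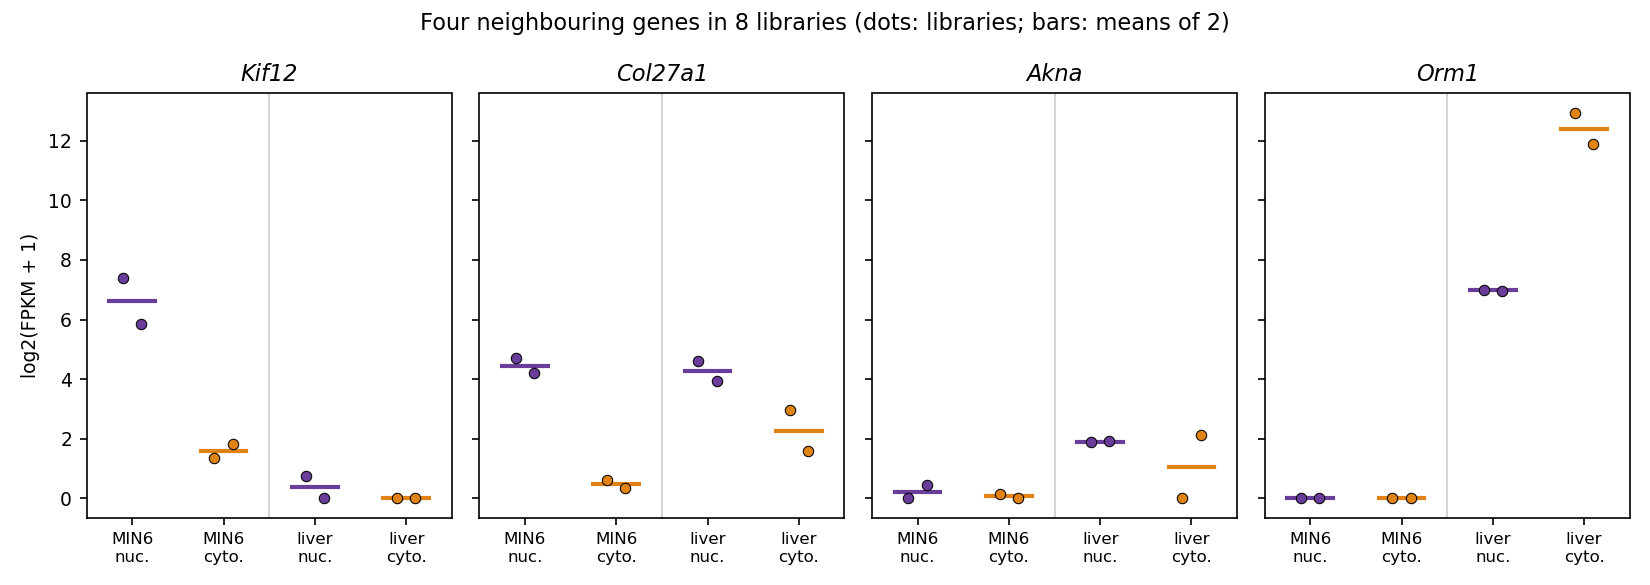
Levels of Kif12, Col27a1, Akna and Orm1 as log2(FPKM + 1) on the vertical axis, with 1 point per library, the nuclear group of each tissue left of its cytoplasmic group, and a bar at the mean of each pair. Kif12 and Col27a1 stand high in MIN6 nuclei, Col27a1 also in liver nuclei, and Orm1 is highest in liver cytoplasm (7816 and 3755 FPKM) and at 0 in MIN6.

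Akna was low throughout, and the difference between its liver fractions did not pass the test. It was listed at 0 and at 0.363 FPKM in MIN6 nuclear libraries, against 0.112 and 0 FPKM in MIN6 cytoplasmic libraries. Each MIN6 fraction had thus 1 library at 0, and the highest MIN6 value stands for an estimated 36.4 reads. The estimates for Akna move in even steps of several estimated reads in both tissues. The numbers of reads may thus be several times lower. In liver Akna had 2.73 and 2.78 FPKM in nuclear libraries, against 0 and 3.38 FPKM in cytoplasmic libraries. The nuclear pair was even and lay between the cytoplasmic values. By the estimate, 3 reads would give 1.34 FPKM in the cytoplasmic library at 0. The other cytoplasmic value rests on an estimated 10.4 reads. Given the steps, that value may rest on only a few reads. The limit of 1.34 FPKM may likewise be several times too low. A cytoplasmic level equal to the nuclear values could then have been missed in the library at 0. The means were 2.75 ± 0.0387 FPKM in nuclear and 1.69 ± 2.39 FPKM in cytoplasmic liver libraries (SD, n = 2 each). The log2 ratio of 0.84, with an SE of 0.78, did not pass limma's test (adjusted p = 0.397). The size of this ratio depends on the scaling: it was 2.57 with libraries shifted to a common median (adjusted p = 0.114) and 3.26 with libraries scaled to a common sum (adjusted p = 0.0720). Per 1000000 estimated reads Akna had 43.9 and 66.7 in nuclear and 0 and 10.7 in cytoplasmic liver libraries, which do not overlap on that scale. Without cytoplasmic library 2 it was 1.91 and passed (adjusted p = 0.0298), and without cytoplasmic library 1 it was -0.22. Of 7 immune markers, 4 to 7 were above 0 in each liver library, and their summed level was 94.2 to 123 FPKM in nuclear and 225 to 258 FPKM in cytoplasmic liver libraries. In MIN6 it was 0.487 to 1.04 FPKM, with 2 or 3 of the 7 above 0 and Ptprc and Cd3e at 0. The part of immune cells in the Akna values was not tested.

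Orm1 was abundant in liver cytoplasm and was listed at 0 in all 4 MIN6 libraries. A count of 3 reads on its transcript would give 0.200 and 0.208 FPKM in MIN6 nuclear libraries and 0.450 and 0.471 FPKM in MIN6 cytoplasmic libraries, so a level under these values would have been missed. In liver Orm1 had 126 and 124 FPKM in nuclear libraries, against 7816 and 3755 FPKM in cytoplasmic libraries. The nuclear pair was even, and both cytoplasmic values lay far above it. The means were 125 ± 1.64 FPKM in nuclear and 5785 ± 2872 FPKM in cytoplasmic libraries (SD, n = 2 each), 46.2-fold higher in cytoplasm. The log2 ratio was -5.42 with an SE of 0.53 (limma adjusted p = 0.00346), the 148th of 10353 genes from the cytoplasmic end. The size of this ratio depends on the authors' scaling. Per 1000000 estimated reads Orm1 had 293 and 428 in nuclear and 2498 and 1709 in cytoplasmic libraries, which is 5.83-fold higher in cytoplasm. With libraries shifted to a common median the log2 ratio was -3.69 (adjusted p = 0.0107). Without nuclear library 1 or 2 the log2 ratio was -5.44 or -5.41 and missed the threshold (adjusted p = 0.0935 and 0.112), as did every other gene of the liver table in those fits.

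In liver, 3 of the 4 genes passed the filter. Col27a1 was called higher in nuclear RNA, where 2.93% of all tested genes were so called, and Orm1 was called higher in cytoplasmic RNA, where 50.2% were. Only Kif12 and Col27a1 passed the filter in MIN6. There 11.8% of tested genes were called higher in nuclear and 46.1% in cytoplasmic RNA.

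The Orm1 reads may in part belong to its paralogs, since Orm2 and Orm3 lie close by and share stretches of sequence with it. The coding sequences of Orm1 and Orm2 have 621 bases each and match at 558 of them, or 89.9%. Of the 740 stretches of 36 bases in the Orm1 transcript, 190 (25.7%) also occur in Orm2 and 4.05% in Orm3. For stretches of 100 bases the shares are 6.95% for Orm2 and 0% for Orm3. A window of exon 2 shows where reads can separate Orm1 from Orm2, with capitals at the 17 differing positions, from chr4:63345089-63345148 for Orm1 and chr4:63362964-63363023 for Orm2, both on the plus strand of GRCm38.
Orm1: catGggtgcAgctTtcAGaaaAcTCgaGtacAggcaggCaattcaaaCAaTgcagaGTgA
Orm2: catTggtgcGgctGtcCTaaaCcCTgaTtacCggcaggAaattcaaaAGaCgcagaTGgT
Read length and the treatment of shared reads are left unsaid in the labels, so the split of reads among the family is uncertain. Orm2 had 32.6 and 15.8 FPKM in liver nuclear libraries, against 3125 and 804 FPKM in cytoplasmic libraries. Orm3 had 6.85 and 3.42 FPKM in liver nuclear libraries, against 32.0 and 19.5 FPKM in cytoplasmic libraries. All 3 were higher in the cytoplasm, with log2 ratios of -6.06 for Orm2 (limma adjusted p = 0.00476) and -2.14 for Orm3 (adjusted p = 0.0226). The call of Orm3 was lost when libraries were shifted to a common median, at a log2 ratio of -0.41 (adjusted p = 0.443).

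Kif12 and Col27a1 differ in size but share features of their annotated transcripts that played no part in their choice. Kif12 covers 6502 bases, with 19 exons and 2258 bases in its longest coding transcript. Col27a1 covers 120988 bases, with 61 exons and 7612 bases. Over the other 5802 coding genes tested in MIN6 the medians were 20054.5 bases of gene length, 10 exons and 2754 bases of transcript. Both had more exons than most of these genes, since 18.5% have at least 19 and 28 genes have at least 61. Kif12 has 1 annotated transcript with a retained intron and 2 marked for nonsense-mediated decay, and Col27a1 has 3 and 2. Transcripts of both kinds are annotated for 29.2% of the other coding genes tested in MIN6, so this is not a rare combination. Akna and Orm1 have neither kind.

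The GC content of the longest coding transcript was 59.3% for Kif12, 59.4% for Col27a1, 57.7% for Akna and 49.0% for Orm1. The median of the other coding genes was 51.8% in MIN6 and 50.4% in liver, and 8.14% of those tested in MIN6 were at or above the value of Kif12. In MIN6 the 419 genes within 1 percentage point of Kif12 had a median log2 ratio of 0.21, against -0.76 over all other coding genes. In liver the 568 genes within 1 point had a median of -1.16, against -1.67 over all other coding genes. Genes of like GC content thus had a higher median ratio than coding genes at large in both tissues, and the part of GC content in the values of Kif12 and Col27a1 was not tested.

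The surrounding genes did not all have the same fraction ratio. Within 500 kb on either side of the 4 genes the annotation lists 31 genes, the 4 included, and 21 of these are in the table. Of the 17 neighbours in the table, 11 were listed at 0 in all MIN6 libraries and 10 in all liver libraries. In MIN6, 3 of the 17 passed the filter, and 2 of the 3 were called higher in nuclear RNA, beside 11.8% of all tested genes. Rgs3, a regulator of G protein signalling, had 14.8 and 10.5 FPKM in MIN6 nuclear libraries, against 4.23 and 6.20 FPKM in cytoplasmic libraries. Whrn, which encodes the scaffold protein whirlin of hair cells, had 8.98 and 5.80 FPKM in MIN6 nuclear libraries, against 3.84 and 1.42 FPKM in cytoplasmic libraries. Neither gene's groups overlapped, and the log2 ratios were 1.13 with an SE of 0.31 for Rgs3 and 1.27 with an SE of 0.42 for Whrn (limma adjusted p = 0.0250 and 0.0469). Atp6v1g1, a subunit of the proton pump of acidic organelles, had 1.51 and 2.07 FPKM in MIN6 nuclear libraries, against 20.5 and 18.7 FPKM in cytoplasmic libraries. It was called higher in cytoplasm, at a log2 ratio of -2.89 (adjusted p = 0.00157). Without cytoplasmic library 2 limma called 0 genes of the MIN6 table in either direction, with 408 nuclear and 2361 cytoplasmic genes at an unadjusted p under 0.05. The ratios of Rgs3 and Whrn are well under those of Kif12 and Col27a1.

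In liver, 6 of the 17 neighbours passed the filter, none was called higher in nuclear RNA by limma, and 5 were called higher in cytoplasmic RNA, where 2.93% and 50.2% of all tested genes were so called. None was higher in nuclear RNA at an unadjusted p under 0.05 either, and the median log2 ratio of the 6 was -3.20, beside -1.64 over all tested genes. Ambp, the precursor of the plasma proteins alpha-1-microglobulin and bikunin, had 209 and 140 FPKM in liver nuclear libraries, against 6576 and 3945 FPKM in cytoplasmic libraries (log2 ratio -4.89, adjusted p = 0.00351). Ambp lies downstream of Kif12 on the same strand. Atp6v1g1 had 4.74 and 6.20 FPKM in liver nuclear libraries, against 151 and 99.7 FPKM in cytoplasmic libraries (log2 ratio -4.27, adjusted p = 0.00370). Rgs3 had 2.58 and 1.68 FPKM in liver nuclear libraries, against 9.69 and 7.08 FPKM in cytoplasmic libraries (log2 ratio -1.59, adjusted p = 0.0334). With libraries shifted to a common median the ratio of Rgs3 was 0.14 and was not called (adjusted p = 0.755). 6330416G13Rik, named Tmem268 in GENCODE, had 4.57 and 2.65 FPKM in liver nuclear libraries, against 5.62 and 7.05 FPKM in cytoplasmic libraries, and did not pass the test (adjusted p = 0.255). Whrn was listed at 0 in all 4 liver libraries. Of the 4 genes and these neighbours, only Col27a1 was called higher in liver nuclear RNA.

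**Figure D2:**
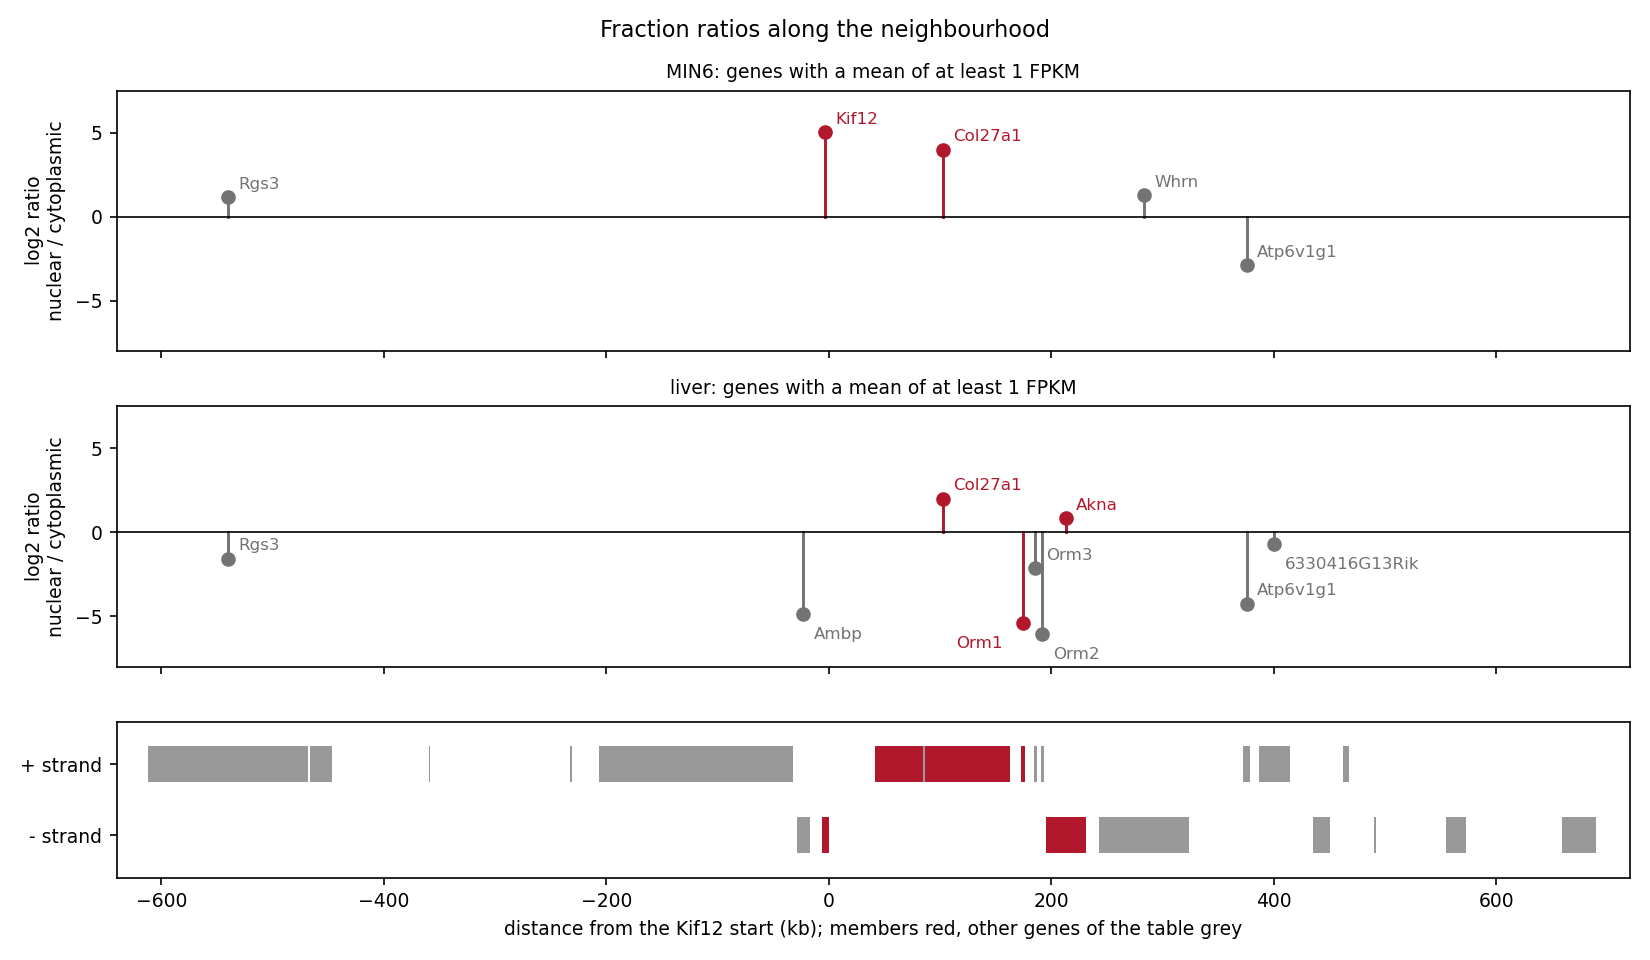
Log2 ratio of nuclear over cytoplasmic FPKM in MIN6 (top) and liver (middle) for genes averaging 1 FPKM or more in that tissue, plotted by distance in kb from the start of Kif12, with the genes of the table drawn by strand at the bottom and Kif12, Col27a1, Orm1 and Akna in red. In MIN6 Kif12 (5.02) and Col27a1 (3.98) stand above Rgs3 (1.13) and Whrn (1.27), and in liver Orm1 and Orm2 point down right beside Col27a1, which points up.

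Other genes of the same families were set beside each member. The kinesin list holds 40 genes of the table, Kif12 left out. In MIN6, 15 passed the filter, of which 4 were called higher in nuclear and 2 in cytoplasmic RNA, where 11.8% and 46.1% of all tested genes were so called, with a median log2 ratio of 0.38 beside -0.76 over all tested genes. The kinesins with the highest MIN6 means were not called. Kif22, a motor of chromosome arms, had 14.9 and 8.34 FPKM in MIN6 nuclear libraries, against 7.16 and 6.94 FPKM in cytoplasmic libraries (log2 ratio 0.60, adjusted p = 0.173). Kifc1, a minus-end motor, and Kif2c, a microtubule depolymerase, had log2 ratios of 0.21 and 0.28 (adjusted p = 0.504 and 0.423). The 4 called kinesins, named after their values were seen, were Kifc2, Kif15, Kif20b and Kif19a, with log2 ratios of 1.96, 1.78, 1.06 and 1.05. Kifc2, Kif15 and Kif20b averaged under 1 FPKM in MIN6 cytoplasm and passed the filter through their nuclear values alone, so their calls say nothing about kinesins as a family. With libraries shifted to a common median, 9 kinesins were called nuclear and 1 cytoplasmic in MIN6, Kif22 and Kif2c among the 9 (adjusted p = 0.0159 and 0.0311).

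In liver, 13 kinesins passed the filter, with 1 called higher in nuclear and 4 in cytoplasmic RNA, where 2.93% and 50.2% of all tested genes were so called, and a median log2 ratio of -1.20, beside -1.64 over all tested genes. The 3 with the highest means, the cargo motors Kif1c, Kif1b and Kif5b, were among the 4. Kif1c had 10.1 and 6.38 FPKM in liver nuclear libraries, against 41.4 and 33.8 FPKM in cytoplasmic libraries (log2 ratio -2.09, adjusted p = 0.0162). After the shift to a common median limma called 2 kinesins nuclear and 0 cytoplasmic in liver, with 0 higher in cytoplasm at an unadjusted p under 0.05. The gene called in liver nuclei, named after its values were seen, was Kifc2, which had 8.13 and 6.98 FPKM in nuclear libraries, against 0 and 2.05 FPKM in cytoplasmic libraries. In these cytoplasmic libraries 3 estimated reads on a transcript of 2 kb would give 3.60 and 2.63 FPKM, so both values are weak limits.

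The collagen list holds 43 genes of the table, Col27a1 left out. In MIN6 only 4 passed the filter, and 2 of them were called higher in nuclear RNA and 1 in cytoplasmic RNA, where 11.8% and 46.1% of all tested genes were so called. Col16a1, a collagen that binds along fibrils, had 16.8 and 7.12 FPKM in MIN6 nuclear libraries, against 0.980 and 0.888 FPKM in cytoplasmic libraries (log2 ratio 2.64, SE 0.42, adjusted p = 0.00506). Col11a2, named after its values were seen, had 3.98 and 1.34 FPKM in MIN6 nuclear libraries and was listed at 0 in both cytoplasmic libraries (adjusted p = 0.0150). Both genes averaged under 1 FPKM in MIN6 cytoplasm and passed the filter through their nuclear values alone, so their calls say nothing about collagens as a family. Col6a3, a chain of beaded filaments, was higher in MIN6 cytoplasm, with a log2 ratio of -1.38 (adjusted p = 0.00720). Col20a1 had a log2 ratio of 1.17 and was not called (adjusted p = 0.101). With libraries shifted to a common median its ratio was 1.77 and was called (adjusted p = 0.0157), and 3 collagens were then called nuclear and 1 cytoplasmic in MIN6.

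In liver, 14 collagens passed the filter, with 3 called higher in nuclear and 6 in cytoplasmic RNA, where 2.93% and 50.2% of all tested genes were so called, and a median log2 ratio of -0.73, beside -1.64 over all tested genes. Col5a3, a chain of a fibrillar collagen, had 44.9 and 27.7 FPKM in liver nuclear libraries, against 6.12 and 4.47 FPKM in cytoplasmic libraries. Its groups did not overlap, and its log2 ratio of 2.54, with an SE of 0.48, passed the test (adjusted p = 0.0106). Col11a2 and Col7a1, named after their values were seen, were the other two. Both were listed at 0 in the liver cytoplasmic libraries, where a 0 is a weak limit, and passed the filter through their nuclear values alone. Col18a1, the precursor of endostatin, had 105 and 87.3 FPKM in liver nuclear libraries, against 459 and 317 FPKM in cytoplasmic libraries (log2 ratio -1.98, adjusted p = 0.0179). Col14a1 was likewise higher in cytoplasm, with a log2 ratio of -2.65 (adjusted p = 0.0101). After the shift to a common median limma called 3 collagens nuclear and 0 cytoplasmic in liver, with 0 higher in cytoplasm at an unadjusted p under 0.05. Col27a1, with 18.8 ± 6.58 FPKM in liver nuclei, thus stood between Col5a3 and the low collagens in level.

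The acute phase list holds 29 plasma protein genes of the table, among them the neighbours Ambp, Orm2 and Orm3 but not Orm1. In liver 28 passed the filter, and limma called 27 of these higher in cytoplasmic RNA and 0 higher in nuclear RNA, with 0 nuclear at an unadjusted p under 0.05 as well, where 50.2% and 2.93% of all tested genes were so called. Their median log2 ratio was -4.58, beside -1.64 over all tested genes and -5.42 for Orm1. With libraries shifted to a common median limma called 24 of them cytoplasmic and 0 nuclear in liver, with 1 nuclear at an unadjusted p under 0.05. Alb, which encodes albumin, had 649 and 738 FPKM in liver nuclear libraries, against 41591 and 32866 FPKM in cytoplasmic libraries (log2 ratio -5.74, adjusted p = 0.00346). Trf, which encodes the iron carrier transferrin, and Saa2, a serum amyloid, had log2 ratios of -5.90 and -5.08 (adjusted p = 0.00346 and 0.00542). The gene not called, named after its values were seen, was Itih3, with 1953 and 691 FPKM in liver nuclear libraries, against 1828 and 815 FPKM in cytoplasmic libraries. In MIN6 only Ttr and Serpina3n passed the filter, and both were higher in cytoplasm, with log2 ratios of -2.68 and -1.27 (adjusted p = 0.00265 and 0.0184). After the shift to a common median Serpina3n was not called (adjusted p = 0.116).

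The genes whose levels ran most like those of Kif12 over the 8 libraries were Lrrc16b, Rhpn1, Insrr, Lmtk3 and Cpt1c. Pearson's r of log2(FPKM + 1), over 9876 genes averaging 1 FPKM or more, was 0.999, 0.995, 0.993, 0.991 and 0.990 in that order. For Col27a1 they were Samd1, Suv420h2, 9430015G10Rik, Safb2 and Arglu1, with r of 0.977, 0.973, 0.969, 0.962 and 0.953. The neighbours themselves were not near each other by this measure, with an r of 0.418 between Kif12 and Col27a1, which made Col27a1 454th in likeness to Kif12 and Kif12 949th in likeness to Col27a1. The 8 points share their libraries and fall into 4 groups, so these coefficients describe a pattern of levels.

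Among the 5315 genes tested in both tissues, Col27a1 stood 15th from the nuclear end in MIN6 and 134th in liver. Of those genes, 606 had ratios above 0 in both tissues. Col27a1 is thus 1 of many genes on the nuclear side in both, with a higher place in MIN6, the tissue by which it was chosen. The plot of MIN6 against liver ratios shows it beside its neighbours Rgs3 and Atp6v1g1, the only others of the neighbourhood tested in both. Nuclear RNA of MIN6 and liver was prepared in unlike ways, so tissue and preparation cannot be told apart in such comparisons.

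**Figure D3:**
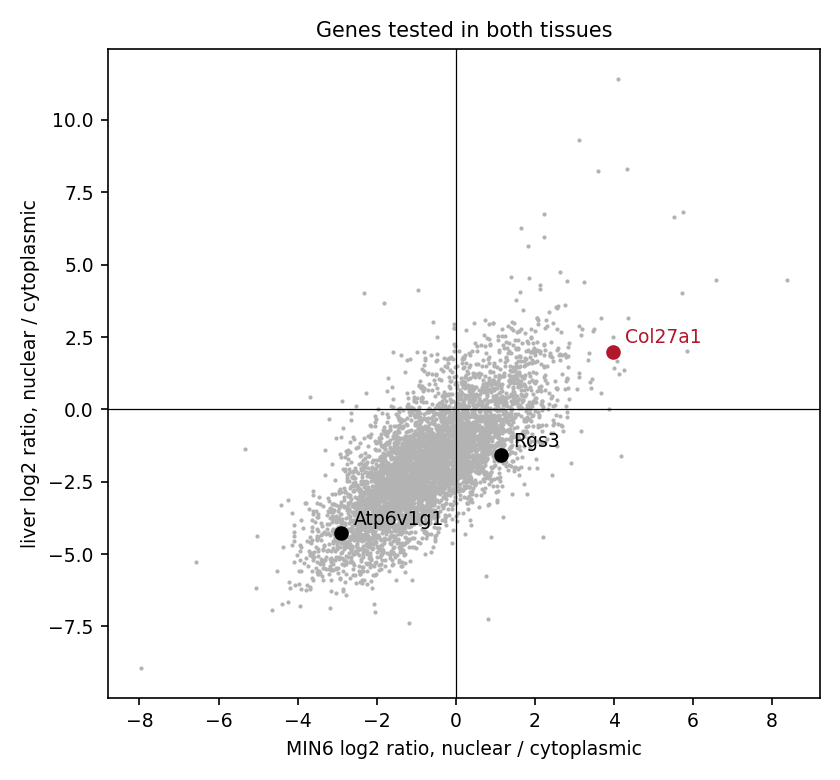
Log2 ratio of nuclear over cytoplasmic FPKM in MIN6 (horizontal) and liver (vertical), 1 point for each of the 5315 genes tested in both tissues, with Col27a1 in red and its neighbours Rgs3 and Atp6v1g1 in black. Col27a1 lies at 3.98 in MIN6 and 2.00 in liver, in the upper right of the cloud, while Rgs3 is at 1.13 in MIN6 and -1.59 in liver.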

How the data were processed

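The authors deposited 1 table of 26520 genes by 8 libraries. Its header names no unit, and the authors made the values, taken as FPKM because that is what Cuffdiff writes, with TopHat and Cuffdiff on mm10, per the submitters' processing notes. Versions, annotation, read length and the scaling of libraries were not given in the sources used here. Groups came from the sample titles. Each tissue was fitted alone with limma 3.58.1 in R 4.3.3 on log2(FPKM + 1), over genes averaging 1 FPKM or more across its 4 libraries, without replicate block. The threshold was a two-sided Benjamini-Hochberg adjusted p under 0.05 over all tested genes. Ratios are nuclear over cytoplasmic, and fold changes on this scale understate the change of low genes. Read numbers, and the floor of 3 reads, were estimated from the steps of low values and cover counting error only. Kif12, Col27a1 and Akna moved in larger steps than 1 estimated read, so the estimate may give too many reads and too low a floor. For a transcript of 2 kb the floor was 0.0776 to 0.0806 FPKM in MIN6 nuclear, 0.174 to 0.182 in MIN6 cytoplasmic, 0.288 to 0.385 in liver nuclear and 2.63 to 3.60 in liver cytoplasmic libraries. Both steps were tested on simulated data. Positions and transcript features came from GENCODE M21 (25522 of 26520 IDs matched). The members and lists were chosen with earlier results of these data known. Named genes are the 4 members, neighbours within 500 kb averaging 1 FPKM or more in either tissue, the 3 genes of highest mean per list and tissue, and the 5 genes with the highest r for Kif12 and for Col27a1. Alternatives were other pseudocounts, filters and scalings, a fit over all 8 libraries, a replicate block and leaving out each library.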

Additional observations from a re-analysis of the deposited data

Results flagged for a closer look

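Rgs3, a neighbour of the 4 genes, had fraction ratios that differed between the tissues. Its log2 ratio of nuclear over cytoplasmic FPKM was 1.13 in MIN6, where it was called higher in nuclear RNA, and -1.59 in liver, where it was called higher in cytoplasmic RNA. The difference, MIN6 minus liver, was 2.72 with an SE of 0.54 (limma interaction term over 5315 genes tested in both tissues, adjusted p = 0.0172). After all 8 libraries were shifted to a common median over those 5315 genes the difference was 1.37 and did not pass (adjusted p = 0.104). Every MIN6 nuclear value was above every MIN6 cytoplasmic value, and every liver nuclear value was below every liver cytoplasmic value. Liver nuclear RNA left out RNA held on chromatin, whereas MIN6 nuclear RNA came from whole nuclei. Tissue and preparation thus cannot be told apart in this difference.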

How the results depend on the processing

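Of the ratios of the 4 genes, only that of Akna, which was not called, changed sign under any alternative run. In liver, the Col27a1 call was lost with a pseudocount of 0.1 (log2 ratio 2.27) or 0.01 (2.31), with no filter (2.00, adjusted p = 0.0796) and with a filter of at least 0.1 FPKM (2.00, adjusted p = 0.0621), and the ratio ranged from 1.30 to 2.69 with single libraries left out. The Orm1 ratio in liver ranged from -5.95 to -4.89 with single libraries left out, and missed the threshold without nuclear library 1 (-5.44, adjusted p = 0.0935) or 2 (-5.41, adjusted p = 0.112). With a common median and a common sum the liver ratio of Col27a1 was 3.73 and 4.85 (limma adjusted p = 0.0123 and 0.0154). That of Orm1 was -3.69 and -2.52 (limma adjusted p = 0.0107 and 0.0353). The Akna ratio in liver, 0.84, was 2.27 and 3.91 with pseudocounts of 0.1 and 0.01, 2.57 with a common median and 3.26 with a common sum, all not called, and -0.22 to 1.91 with single libraries left out. The untested liver ratio of Kif12, 0.37, was 1.48 and 3.05 with pseudocounts of 0.1 and 0.01, 2.10 with a common median, 1.14 with a common sum, and 0 to 0.75 with single libraries left out. In MIN6, pseudocounts of 0.1 and 0.01, a common median and a common sum gave 5.44, 5.74, 4.58 and 6.35 for Col27a1 (3.98) and 0.56, 0.81, 0.75 and 0.98 for Akna (0.15). The common sum gave 6.36 for Kif12 (5.02). With single libraries left out the MIN6 ratio was 4.25 to 5.79 for Kif12, 3.72 to 4.23 for Col27a1 and -0.08 to 0.37 for Akna. Orm1 has no ratio in MIN6.

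Counts of called genes moved as well. In liver they were 303 nuclear and 5197 cytoplasmic, 933 and 1503 with a common median, and 1513 and 534 with a common sum. Leaving out single liver libraries gave 0 to 370 nuclear and 0 to 5535 cytoplasmic calls. Without nuclear library 1 or 2 limma called none, with 240 or 296 nuclear and 4035 or 3395 cytoplasmic genes at an unadjusted p under 0.05. In MIN6 they were 712 and 2775, 1423 and 1754 with a common median, 1088 and 1773 with a common sum, and 413 nuclear in the fit over all 8 libraries. Leaving out single MIN6 libraries gave 0 to 814 nuclear and 0 to 2294 cytoplasmic calls. Without cytoplasmic library 2 limma called none, with 408 nuclear and 2361 cytoplasmic genes at an unadjusted p under 0.05. A group left with 1 library was assumed to vary like the other. The cause of these shifts was not tested.

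The replicate numbers are not stated to pair libraries, and the deviations of same-numbered libraries correlated at 0.04 in liver and 0.05 in MIN6. With the replicate number as a block there were 319 nuclear and 5338 cytoplasmic calls in liver and 700 and 2681 in MIN6, and the calls of Col27a1 (adjusted p = 0.0264), Orm1 (0.0109) and Akna (0.338) stood as before.

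With 2 libraries a group, limits are wide. A level under 2.63 to 3.60 FPKM in liver cytoplasm rests on fewer than 3 reads for a transcript of 2 kb, so Kif12, with a transcript of about that length, cannot be placed there.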
